A study of Homo sapiens with 9 samples.

Results

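The genes described here were 8 genes of androgen signalling and of the prostate luminal lineage, namely KLK2, KLK3, TMPRSS2, FKBP5, FOLH1, STEAP2, FOXA1 and SLC45A3. They were chosen by name, and each symbol matched 1 of the 60617 Ensembl identifiers in the counts of 9 RNA-seq libraries. All libraries came from PC-3, an androgen-independent human prostate cancer cell line grown in RPMI1640 medium, and no androgen-responsive line was used. Of the libraries, 3 were controls and 3 came from cells treated with decitabine at 1 µM. The other 3 came from cells treated with decitabine and S-adenosylmethionine (SAM) at 200 µM, called the combination. The paper describes its controls as given a vehicle in its methods and as untreated in its results. The labels give 5 days of treatment. Decitabine is a nucleoside analog that is built into DNA and traps DNA methyltransferases, so that methylation is lost as cells divide. SAM is the methyl donor of these enzymes. The comparisons ask what decitabine did to these genes and whether adding SAM changed it.

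The androgen receptor is a nuclear receptor that binds DNA at androgen response elements once it has bound testosterone or dihydrotestosterone. In luminal cells of the prostate it drives secretory genes, of which KLK3 encodes prostate-specific antigen and KLK2 the related kallikrein peptidase hK2. FOXA1 is the pioneer factor that opens chromatin for the receptor. TMPRSS2, a membrane serine protease, and SLC45A3, which encodes prostein, are androgen-driven genes whose promoters are often fused to ETS factors in prostate cancer. FKBP5 is a cochaperone of steroid receptors and is itself induced by androgens and by glucocorticoids. FOLH1 encodes prostate-specific membrane antigen, and STEAP2 is a metalloreductase of the prostate epithelium.

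Since decitabine acts on methylated CpG sites, the reference promoters of these genes are shown with each CpG in capitals. Each window holds 250 bases before the RefSeq transcription start and 50 bases from it, read 5′ to 3′ on the strand of the gene in GRCh38.p14. Windows were at hand for 6 of the 8 genes, KLK2, KLK3, FKBP5, STEAP2, FOXA1 and SLC45A3. The 4 printed below are those of both kallikreins, which have few CpG sites, and of the lineage factor and prostein, which have many. KLK2 is at chr19:50873189-50873488 on the plus strand, and KLK3 is at chr19:50854665-50854964 on the plus strand. FOXA1 is at chr14:37595200-37595499 and SLC45A3 at chr1:205680460-205680759, both on the minus strand.
KLK2: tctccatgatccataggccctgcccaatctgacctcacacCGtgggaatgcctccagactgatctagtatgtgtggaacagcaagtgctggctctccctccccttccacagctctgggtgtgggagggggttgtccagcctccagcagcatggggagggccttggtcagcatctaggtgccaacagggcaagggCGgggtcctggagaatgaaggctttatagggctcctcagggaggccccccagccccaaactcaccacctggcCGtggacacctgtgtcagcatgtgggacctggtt
KLK3: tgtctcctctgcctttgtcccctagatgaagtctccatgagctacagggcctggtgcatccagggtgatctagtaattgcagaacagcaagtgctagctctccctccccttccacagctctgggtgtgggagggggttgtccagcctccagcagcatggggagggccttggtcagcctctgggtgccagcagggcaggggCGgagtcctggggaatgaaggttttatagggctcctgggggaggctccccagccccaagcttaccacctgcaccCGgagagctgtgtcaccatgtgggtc
FOXA1: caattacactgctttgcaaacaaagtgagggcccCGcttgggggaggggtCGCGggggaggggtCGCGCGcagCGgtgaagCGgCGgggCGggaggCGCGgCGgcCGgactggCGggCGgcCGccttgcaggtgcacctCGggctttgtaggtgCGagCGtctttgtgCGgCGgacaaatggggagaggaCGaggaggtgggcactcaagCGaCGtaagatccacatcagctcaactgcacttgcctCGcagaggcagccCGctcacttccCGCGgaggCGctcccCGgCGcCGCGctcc
SLC45A3: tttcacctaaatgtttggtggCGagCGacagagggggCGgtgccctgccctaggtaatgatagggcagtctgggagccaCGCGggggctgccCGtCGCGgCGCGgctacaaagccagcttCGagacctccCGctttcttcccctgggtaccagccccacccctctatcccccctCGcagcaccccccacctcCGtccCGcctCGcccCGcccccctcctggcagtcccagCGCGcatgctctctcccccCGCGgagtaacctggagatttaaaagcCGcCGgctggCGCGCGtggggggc

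The KLK2 window held 3 CpG sites and the KLK3 window 2. Over 35116 promoter windows of the same length the median was 14 CpG sites, and 24.5% of them had as few as KLK2 or fewer. The FOXA1 window held 34 CpG sites, and 85.9% of windows had as many or fewer. The SLC45A3 window held 26 (71.8% of windows). FKBP5 and STEAP2 each had 2 starts of opposite kinds. The FKBP5 start at chr6:35688866-35689165 had 38 sites and the one at chr6:35728534-35728833 had 3, while STEAP2 had 28 sites at chr7:90211490-90211789 and 2 at chr7:90213570-90213869. The letters of the androgen response element were searched on both strands as AGAACA, 3 bases of any kind and TGTTCT, or as either of these arms alone. No window of these genes held an exact match to the whole element, which 1 of the 35116 windows held. Looser matches were not searched, so this does not show that a window lacks an element. An arm was found in the KLK3 window at base 81 and in the FKBP5 window with few CpG sites at base 251, counted from the 5′ end, against 14.8% of all windows with at least 1 arm. These are matches of letters in the reference, and methylation of these windows was not analysed here.

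In control PC-3 cells the 8 genes fell into 4 that were clearly measured and 4 that were at or near 0. Levels were set side by side as CPM (a gene's counts relative to its library's total, per 1 megaread) scaled by TMM, a method that corrects for composition between libraries, and divided by the kilobases of annotated exon. On this scale the mean level in controls was 35.5 CPM per kb for FOXA1, 4.93 for SLC45A3, 3.46 for FKBP5 and 1.04 for STEAP2. This order held in each group, and neighbours in it did not overlap over the 9 libraries. TMPRSS2 had 1 count and KLK2, KLK3 and FOLH1 had 0 in the 3 controls together. A total of 0 allows a level of up to 0.0496 CPM, the level of 3 counts over the group, and this limit covers counting error only. RNA of FOXA1, SLC45A3, FKBP5 and STEAP2 was thus measured in these cells, while KLK3 and FOLH1, secretory and surface markers of the luminal cell, were at 0 in the controls. No other cell type was compared, so these levels do not show a lineage.

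**Figure D1:**
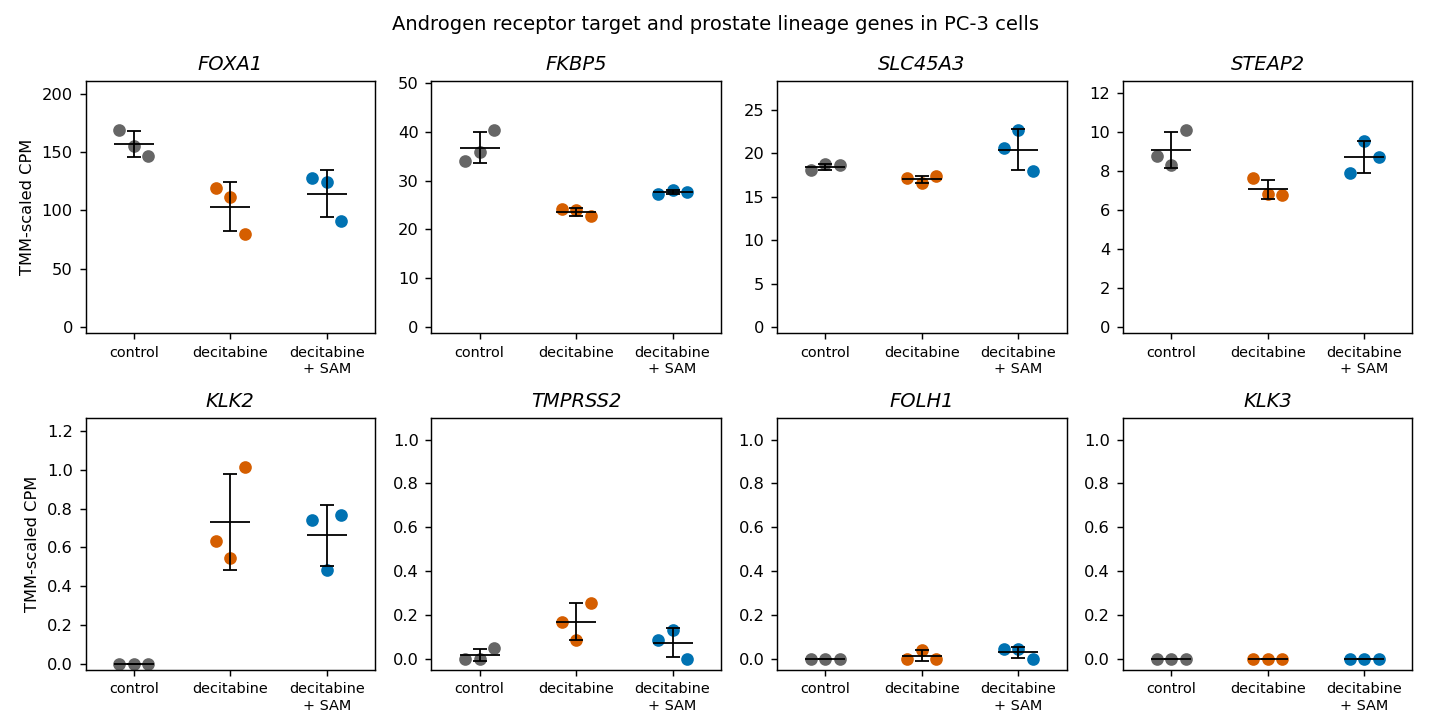
TMM-scaled CPM of the 8 genes (linear vertical axes, a different range in each panel) in control, decitabine and combination (decitabine + SAM) libraries. Points are libraries, and bars show the mean ± SD of 3. FOXA1 and FKBP5 were lower in all 6 treated libraries than in the controls, KLK2 had counts in treated libraries alone, and KLK3 was at 0 throughout.

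FOXA1 and FKBP5 were lower with both treatments. STEAP2 was lower with decitabine, and SLC45A3 passed the test in neither. KLK2 had counts in treated libraries alone and entered the test only through them, so its comparison with control is given as a description, with no test, and no share of the 8 is drawn. Of the 18532 genes tested, 68.8% passed with decitabine (36.3% higher and 32.5% lower) and 67.2% with the combination (35.9% higher and 31.3% lower), at an adjusted p of 0.05 in edgeR's quasi-likelihood test. Changes of single genes therefore stood among changes of most genes measured. In RNA from whole cultures, fewer cells that express a gene and less RNA of it per cell cannot be told apart.

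FOXA1 (ENSG00000129514, chr14:37589552-37596059, minus strand) had 169, 155 and 146 CPM in the 3 controls. With decitabine it had 119, 111 and 79.6 CPM, and with the combination 128, 124 and 91.3 CPM. Every treated library was below every control, and the lowest library of each treated group was replicate 3. The level fell from 157 ± 11.2 to 103 ± 20.8 CPM with decitabine (SD, n = 3), a log2 fold change of -0.60 (SE 0.163, adjusted p = 0.0081, edgeR). With the combination it was 114 ± 20.1 CPM, a log2 fold change of -0.45 (SE 0.163, adjusted p = 0.031, edgeR). Replicate 3 held 69.3% of the mean of the other decitabine libraries, 72.5% of the mean of the other combination libraries and 90.5% among controls. Among 12 other luminal epithelial genes, replicate 3 was lowest for 5 with decitabine, 6 with the combination and 5 in controls, and highest for 5, 1 and 4. SPDEF, an ETS factor of luminal cells, and the adhesion molecule EPCAM were lowest there in each group, the former at 68.7%, 66.3% and 84.0% and the latter at 73.6%, 69.0% and 88.2% of the mean of the other replicates, and were named after their values were seen. ELF3 and CLDN4 were highest there with decitabine. The part of these libraries in the result was not tested beyond leaving each out: the decitabine call held without each library, with log2 fold changes from -0.72 to -0.45. The combination call was lost without control replicate 1, control replicate 2 or combination replicate 3, where the log2 fold change was -0.41, -0.47 and -0.32.

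FKBP5 (ENSG00000096060, chr6:35573585-35728583, minus strand) had 34.0, 35.9 and 40.3 CPM in controls. It had 24.3, 23.9 and 22.7 CPM with decitabine, and 27.2, 28.0 and 27.7 CPM with the combination. The 3 groups did not overlap: decitabine was lowest, the combination lay between, and controls were highest. The log2 fold change was -0.64 with decitabine (SE 0.083, adjusted p = 9.4e-06, edgeR) and -0.41 with the combination (SE 0.082, adjusted p = 0.00048, edgeR). Both calls held without each library in turn. The treated libraries were close to each other, with a coefficient of variation of 3.5% for decitabine and 1.5% for the combination, where FOXA1 had 20.1% and 17.5%.

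STEAP2 (ENSG00000157214, chr7:90167590-90238137, plus strand) had 8.78, 8.34 and 10.1 CPM in controls, 7.64, 6.83 and 6.77 CPM with decitabine, and 7.92, 9.54 and 8.72 CPM with the combination. The decitabine libraries lay below the other 6, while combination and control libraries overlapped. The log2 fold change was -0.36 with decitabine (SE 0.128, adjusted p = 0.022, edgeR) and -0.06 with the combination (SE 0.127, adjusted p = 0.7, edgeR). The decitabine call was lost without control replicate 3, decitabine replicate 2 or decitabine replicate 3, where the log2 fold change was -0.28, -0.34 and -0.33.

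SLC45A3 (ENSG00000158715, chr1:205657851-205680509, minus strand) had 18.1, 18.7 and 18.6 CPM in controls. The decitabine libraries had 17.1, 16.6 and 17.4 CPM and the combination libraries 20.7, 22.7 and 18.0 CPM. The decitabine libraries lay just under the controls without overlap, and the combination libraries spread around them. Neither difference passed, with log2 fold changes of -0.12 (SE 0.097, adjusted p = 0.3, edgeR) and 0.14 (SE 0.097, adjusted p = 0.2, edgeR).

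These 4 fold changes are small enough to depend on the scaling. TMM factors were 0.895 to 0.902 in controls and 1.03 to 1.08 in treated libraries, so the choice shifts every gene. The median over the 18532 genes was 0.04 (decitabine) and 0.05 (combination) on the log2 scale under TMM, and 0.28 and 0.27 when libraries were scaled by their size alone. The share of calls that were higher rose from 52.7% to 70.2% and from 53.4% to 69.2%. Under library size alone FKBP5 stayed lower with decitabine (-0.39, adjusted p = 0.0008, edgeR), and no other of the 4 genes passed in that comparison. FOXA1 was at -0.36 (adjusted p = 0.054), STEAP2 at -0.11 (adjusted p = 0.45) and SLC45A3 turned to 0.13 (adjusted p = 0.24). With the combination FOXA1 was then at -0.24 (adjusted p = 0.18), FKBP5 at -0.19 (adjusted p = 0.054), STEAP2 turned to 0.16 (adjusted p = 0.27) and SLC45A3 passed as higher at 0.36 (adjusted p = 0.0034). Measured against the median of all genes with decitabine, FOXA1 was 0.637 below it under TMM and 0.639 under library size alone. FKBP5 was 0.672 and STEAP2 0.394 below it under both scalings. A change of scaling shifts all genes by nearly the same amount, and subtracting the median removes that shift. The likeness was thus fixed in advance and cannot show whether the lower levels hold under either scaling. These values only place the genes relative to the median gene.

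**Figure D2:**
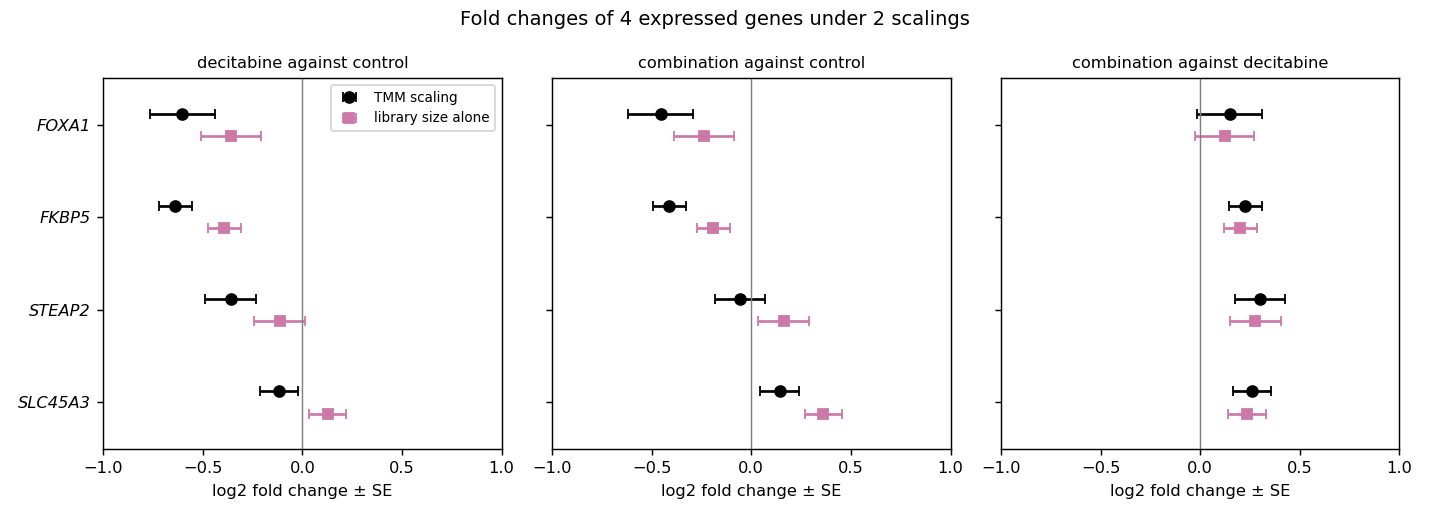
Log2 fold changes ± SE (horizontal axes) of FOXA1, FKBP5, STEAP2 and SLC45A3 in the 3 comparisons, with TMM scaling (black circles) and with library size alone (pink squares), 3 libraries a group. Against control the squares lie to the right of the circles for each gene, so that STEAP2 with the combination and SLC45A3 with decitabine cross 0, and between the treatments the values nearly coincide.

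KLK2 (ENSG00000167751, chr19:50861568-50880567, plus strand) had no count in any control. It had 15, 13 and 24 counts with decitabine and 17, 11 and 18 counts with the combination, a mean of 0.732 ± 0.249 and 0.663 ± 0.156 CPM (SD, n = 3). All 6 treated libraries were above all controls. Set against 3 counts over the controls, the level was 14.8-fold higher with decitabine and 13.4-fold higher with the combination. These folds leave out the counting error of the treated counts. The level reached was 0.115 CPM per kb with decitabine, against 2.22 for FKBP5 in the same libraries. KLK2 thus stood below FOXA1, SLC45A3, FKBP5 and STEAP2.

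KLK3, whose gene (chr19:50854915-50860764, plus strand) ends 0.8 kb before KLK2 begins in GENCODE 44, had 0 counts in all 9 libraries. That allows up to 0.0422 CPM with decitabine and 0.0433 CPM with the combination. The promoters of these neighbours are alike in their few CpG sites, as printed above, yet counts were assigned to KLK2 alone. The KLK2 and KLK3 transcripts share 60 of the 6652 words of 31 bases in KLK2, and 6 of 6 treated libraries had KLK2 counts while none had KLK3 counts. The annotated KLK2 gene starts upstream of the printed promoter, and counts per gene do not show which start was used.

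TMPRSS2 (chr21:41464300-41531116, minus strand) did not reach the counts needed for testing. It had 0, 0 and 1 counts in controls, 4, 2 and 6 with decitabine, and 2, 3 and 0 with the combination. The ratio of the summed counts was 10.2 for decitabine, with a 95% interval from 1.51 to 437, and 4.37 for the combination, with an interval from 0.488 to 206. The decitabine libraries were all above the controls, and the combination libraries overlapped them. Without a filter on low counts, TMPRSS2 passed with decitabine (log2 fold change 2.94, adjusted p = 0.037, edgeR) and did not with the combination (1.79, adjusted p = 0.35, edgeR). MX1, an interferon-induced antiviral gene, overlaps TMPRSS2 on the opposite strand, and 511 of the 6901 words of 31 bases in TMPRSS2 (7.4%) occur in MX1 transcripts read on either strand. MX1 had the same order of group means, at 21.3 ± 8.39 CPM in controls, 582 ± 94.6 with decitabine and 120 ± 79.0 with the combination (SD, n = 3). Within groups the orders differed. Replicate 3 had the least MX1 in controls (11.7 CPM) and with decitabine (482 CPM), and the most TMPRSS2 counts there. With the combination it had the most MX1 (210 CPM) and no TMPRSS2 count. Whether the counting used strand is not given in the sources used here, and the part of MX1 reads in the TMPRSS2 counts was not tested.

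FOLH1 (chr11:49145092-49208638, minus strand) had 0 counts in controls, 0, 1 and 0 with decitabine, and 1, 1 and 0 with the combination. A difference was not detectable at this depth. Its near copy FOLH1B shares 27.7% of the FOLH1 words of 31 bases and had at most 1 count in any library, so the pair was near 0 however reads were split.

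Adding SAM to decitabine moved none of the 5 genes tested past the threshold. Between the combination and decitabine, 15.7% of the 18532 genes passed (7.67% higher and 8.02% lower, edgeR), and of these 5 genes the count was 0. DESeq2 and limma with voom also called 0, and 3 of the 5 had an unadjusted p under 0.05, namely FKBP5, SLC45A3 and STEAP2. In each of these the combination libraries all lay above the decitabine libraries. FKBP5 had a log2 fold change of 0.23 (SE 0.083, adjusted p = 0.08, edgeR), SLC45A3 of 0.26 (SE 0.096, adjusted p = 0.08, edgeR) and STEAP2 of 0.30 (SE 0.127, adjusted p = 0.12, edgeR). SLC45A3 passed without combination replicate 3 (0.35, adjusted p = 0.018, edgeR), its lowest combination library. FOXA1 (0.15, SE 0.163, adjusted p = 0.58, edgeR) and KLK2 (-0.14, SE 0.362, adjusted p = 0.82, edgeR) overlapped between the treatments.

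KLK2 and KLK3 lie in the kallikrein cluster, 15 serine protease genes within 265.1 kb of chromosome 19. Of these, 6 had a count in at least 1 control, and 13 had one with each treatment. Of all 60617 identifiers, single control libraries had counts for 24270 to 24682 and single treated libraries for 28454 to 29387. The cluster counts pool the 3 libraries of a group and these do not, so they are not like for like. In the cluster 5 genes reached the counts needed for testing, of which KLK2, KLK6 and KLK10 had under 10 counts in every control and KLK5 had 5, 8 and 10. These 4 reached them through their treated libraries, so their differences from control are described with no test. KLK10, a kallikrein often silenced by methylation in tumours, had the highest counts of the cluster in both treated groups, with 2, 3 and 0 in controls, 164, 190 and 314 with decitabine, and 82, 81 and 157 with the combination. This was 0.0830 ± 0.0762, 9.40 ± 3.40 and 4.60 ± 1.80 CPM (SD, n = 3). The combination libraries were all below the decitabine libraries in CPM, and that difference missed the threshold (-1.03, SE 0.315, adjusted p = 0.051, edgeR). KLK10 was high in replicate 3 of both treatments, at 177.9% and 187.5% of the mean of the other replicates, while FOXA1 was low there.

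KLK5, a skin and gland kallikrein, went from 0.380 ± 0.124 to 4.32 ± 0.976 CPM with decitabine and to 2.67 ± 1.22 CPM with the combination (SD, n = 3). KLK6 went from 0.198 ± 0.177 to 1.08 ± 0.384 and 0.853 ± 0.201 CPM. KLK14 had 0.464 CPM in controls, 0.830 with decitabine and 0.895 with the combination, and did not pass (adjusted p = 0.093 and 0.06, edgeR). With 5, 16 and 7 counts in controls, KLK14 also reached the filter through its treated libraries. Among the 10 genes under the filter none had more than 16 summed counts in a group. KLK13 had the most, 16 with decitabine and 11 with the combination against 0 in controls. This was 4.54-fold and 3.20-fold above a level of 3 counts over the controls. The nearest prostate kallikreins, KLK15 and KLK4, had 4 and 3 counts over all 9 libraries.

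**Figure D3:**
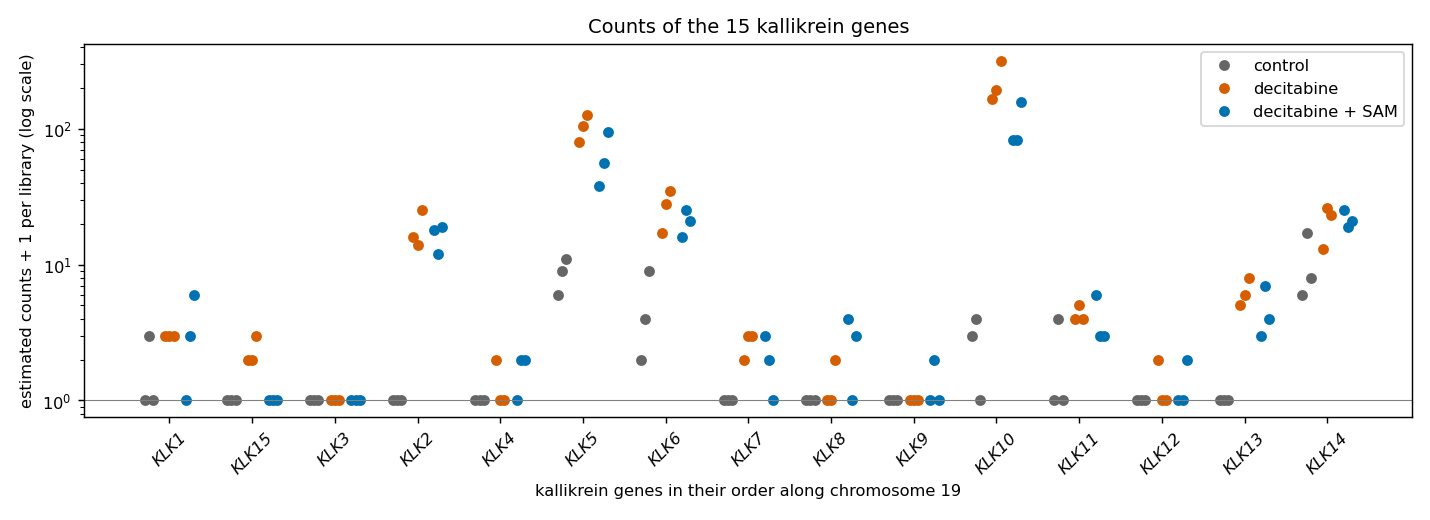
Estimated counts + 1 per library on a log axis for the 15 kallikrein genes in their order along chromosome 19, with 3 points for each of the control, decitabine and decitabine + SAM groups. The grey line at 1 stands for 0 counts. KLK2, KLK5, KLK6 and KLK10 stand above their controls in every treated library, and KLK3 stays on the line.

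The other neighbours of the genes were given by the same rule, the nearest protein-coding gene on each side. FOXA1 lies between MIPOL1, 10.4 kb away, which fell from 32.5 ± 1.87 to 19.6 ± 3.13 and 18.5 ± 1.19 CPM (log2 fold changes -0.73 and -0.82, adjusted p = 4e-05 and 1.5e-05, edgeR), and the somatostatin receptor gene SSTR1, 611.8 kb away, which went from 0.248 ± 0.0502 to 6.63 ± 2.81 and 10.5 ± 1.70 CPM and was near 0 in controls. TTC6, which overlaps FOXA1 on the opposite strand, did not pass (5.11, 4.49 and 3.81 CPM). Next to SLC45A3, the ETS factor gene ELK4 rose (47.6, 56.3 and 63.2 CPM, log2 fold changes 0.24 and 0.41, adjusted p = 0.008 and 0.00015, edgeR), and NUCKS1, a chromatin protein gene, fell (468, 157 and 184 CPM, log2 fold changes -1.57 and -1.35, adjusted p = 2e-09 and 8.4e-09, edgeR). The neighbours of STEAP2 passed in neither comparison with control: STEAP1, 2.8 kb away, had 18.4, 18.6 and 21.4 CPM, and CFAP69, 7.0 kb away, had 4.12, 3.63 and 4.10 CPM. Beside TMPRSS2, the interferon-induced gene MX2 had 1.52 ± 0.583 CPM in controls and 113 ± 4.95 with decitabine (adjusted p = 0.0019, edgeR), and 4.52, 5.05 and 37.4 CPM in the combination libraries, so that the combination mean of 15.7 ± 18.9 CPM (adjusted p = 0.035, edgeR) rested on replicate 3. RIPK4, a kinase gene of epithelia, rose with the combination (31.9 and 39.7 CPM, adjusted p = 0.014, edgeR). The genes beside FKBP5 (TULP1 and ARMC12) and FOLH1 (TRIM64C and OR4C13) had low or no counts. 

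Relatives of the 8 genes by sequence family were 14, of which 11 were tested. With decitabine 6 were higher, 3 lower and 2 not called, against 36.3% and 32.5% of all genes, and with the combination 6 were higher, 2 lower and 3 not called. FOXA2 was expressed in controls at 63.4 ± 5.01 CPM and was not called (adjusted p = 0.77 and 0.89, edgeR), unlike FOXA1. FOXA3 had 0 counts in controls, 27 with decitabine and 62 with the combination, 7.66-fold and 18.0-fold above a level of 3 counts over the controls. The treatments differed (log2 fold change 1.22, adjusted p = 0.03, edgeR). That difference was lost without any 1 of the decitabine libraries or without combination replicate 1 or 2, at 1.15 to 1.39. The STEAP family split: the metalloreductase STEAP3 fell from 180 ± 14.8 to 64.0 ± 9.23 and 57.1 ± 5.02 CPM (log2 fold changes -1.49 and -1.66, adjusted p = 3e-08 and 1.2e-08, edgeR), while STEAP1B went from 0.0826 to 5.95 and 4.14 CPM and STEAP4 from 0.281 to 1.83 and 1.38 CPM. FOXA3, STEAP1B, STEAP4 and SLC45A2, which make 4 of the 6 higher genes, had under 10 counts in every control and were tested through their treated libraries. FKBP4, the other large immunophilin of steroid receptor complexes, fell with FKBP5 (293, 198 and 227 CPM, log2 fold changes -0.56 and -0.37, adjusted p = 4.5e-05 and 0.0017, edgeR). With library size alone the combination value was -0.15 (adjusted p = 0.11, edgeR). SLC45A4 rose (19.6, 49.7 and 44.4 CPM, log2 fold changes 1.34 and 1.18), as did TMPRSS3 (1.21, 14.1 and 12.4 CPM, log2 fold changes 3.54 and 3.35), while SLC45A1 fell with decitabine (-0.90, adjusted p = 0.0079, edgeR).

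The wider programme was described by lists of genes named in the methods, by their counts and medians and with no test of a list. Beside each stand the shares over all genes given above, 36.3% higher and 32.5% lower with decitabine, and 35.9% and 31.3% with the combination. Genes near 0 in controls enter a list's counts only where treated libraries carry them, which raises its higher count and median. Of 26 other androgen-induced genes 22 were tested, and 11 were higher and 9 lower with decitabine, a median log2 fold change of 0.41 beside 0.04 over all genes tested. With the combination 12 were higher and 7 lower (median 0.29 beside 0.05). C1orf116 rose from 6.20 ± 0.823 to 68.3 ± 17.4 and 59.3 ± 12.1 CPM, and the vesicle GTPase RAB3B from 7.46 ± 1.15 to 53.1 ± 5.35 and 49.7 ± 5.37 CPM. SPDEF fell from 76.9 ± 7.80 to 34.8 ± 8.68 and 37.9 ± 8.81 CPM, and the condensin subunit gene NCAPD3 from 154 ± 6.19 to 64.3 ± 11.9 and 69.6 ± 4.89 CPM. Without TRPM8, STEAP4 and GNMT, which had under 10 counts in every control, the medians were -0.02 and 0.14.

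Of 12 secretory and prostate-restricted genes 7 were tested, and 4 were higher and 1 lower with decitabine (median 1.65), and 5 and 1 with the combination (median 1.45). Of the higher genes 3, the neuropeptide NPY (0.0995, 2.59 and 3.46 CPM), the choline transporter-like gene SLC44A4 (0.264, 4.46 and 3.90 CPM) and the cold channel TRPM8 (0.198, 1.27 and 1.13 CPM), had under 10 counts in every control, and without them the medians were 0.33 and 0.50. ACP3, which encodes prostatic acid phosphatase and belongs to the androgen-induced list too, fell from 2.31 ± 0.185 to 0.718 ± 0.112 and 0.707 ± 0.126 CPM (log2 fold changes -1.68 and -1.70, adjusted p = 2.9e-05 and 2.8e-05, edgeR). MSMB and PCGEM1 had no counts. Of 12 luminal epithelial genes all were tested, and 7 were higher and 4 lower with either treatment (medians 1.28 and 1.08). GRHL2 (0.0660, 1.22 and 1.27 CPM), CLDN7 (1.16, 17.3 and 14.3 CPM) and EHF (0.726, 2.56 and 2.55 CPM), 2 epithelial transcription factors and a tight junction gene, were higher, GRHL2 from under 10 counts in every control. EHF, with 15, 7 and 22 counts in controls, also reached the filter through its treated libraries. CLDN4 (383, 162 and 148 CPM) and KRT19 (360, 240 and 228 CPM), a claudin and a keratin at high levels in controls, fell. GATA2, a partner of FOXA1 at androgen-driven enhancers, rose from 3.26 ± 0.287 to 9.82 ± 1.18 and 14.6 ± 3.43 CPM, and the rise with the combination was larger (log2 fold change between the treatments 0.57, adjusted p = 0.029, edgeR), a call lost without decitabine replicate 1 or 2 or combination replicate 1 or 2, at 0.41 to 0.60.

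**Figure D4:**
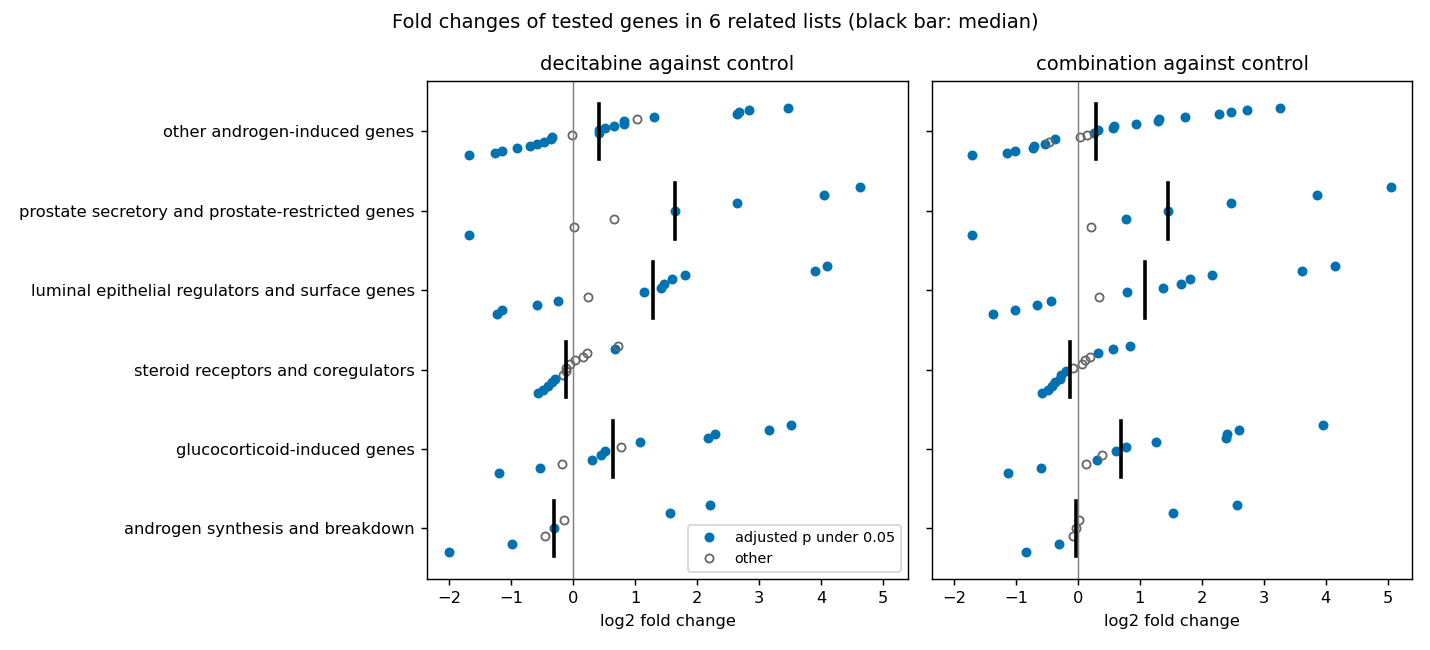
Log2 fold changes (horizontal axes) of the tested genes of 6 lists related to the 8 genes, with decitabine and with the combination against control. Filled points had an adjusted p under 0.05, open points did not, and black bars are list medians. Points lie on both sides of 0 in every list, and the medians run from -0.31 for androgen synthesis and breakdown to 1.65 for the secretory list with decitabine.

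Since FKBP5 is induced by glucocorticoids as well, the glucocorticoid receptor gene NR3C1 and its targets were set beside it. NR3C1 had 46.1 ± 2.94 CPM in controls, 51.5 ± 4.49 with decitabine and 57.7 ± 8.11 with the combination (log2 fold changes 0.16 and 0.33, adjusted p = 0.17 and 0.011, edgeR). The combination call was lost without control replicate 2 or combination replicate 3, at 0.27 and 0.22. TSC22D3, a glucocorticoid target also called GILZ, rose from 16.4 ± 2.83 to 23.5 ± 0.505 and 28.1 ± 4.29 CPM (log2 fold changes 0.52 and 0.78, adjusted p = 0.0028 and 0.00011, edgeR). Of 13 glucocorticoid-induced genes 12 were tested, and 8 were higher and 2 lower with either treatment (medians 0.65 and 0.69). ANGPTL4, FAM107A, DUSP1 and PDK4 were among those that rose, with log2 fold changes of 3.52, 3.15, 2.28 and 2.17 with decitabine, and GLUL (-1.20) and ERRFI1 (-0.54) fell. ANGPTL4 had 13, 2 and 13 counts in controls, and FAM107A had 13, 13 and 10. Both reached the filter through their treated libraries, so their values are descriptions.

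Of 15 steroid receptors and coregulators 14 were tested, and 1 was higher and 5 lower with decitabine, and 3 and 7 with the combination (medians -0.12 and -0.13). With library size alone this turned to 5 higher and 2 lower, and 6 and 2 (medians 0.13 and 0.09). The estrogen receptor beta gene ESR2 was higher with the combination at the edge of the threshold (14, 13 and 10 counts in controls and 24, 28 and 24 with the combination, log2 fold change 0.84, adjusted p = 0.0495, edgeR), and the call was lost with DESeq2, with limma and voom, and without any 1 of the control or combination libraries or decitabine replicate 2, at 0.69 to 0.93. In controls ESR2 fell just short of the filter and reached it through its treated libraries, so its value is a description. The coactivator gene NCOA3 rose (95.2, 152 and 142 CPM, log2 fold changes 0.67 and 0.58), and PTGES3, which encodes the HSP90 cochaperone p23, was lower (586, 420 and 485 CPM, log2 fold changes -0.48 and -0.27), the latter not called with library size alone (-0.06, adjusted p = 0.51, edgeR). Of 14 genes of androgen synthesis and breakdown 7 were tested, and 2 were higher and 3 lower with decitabine, and 2 and 2 with the combination (medians -0.31 and -0.02, the latter 0.20 with library size alone). HSD17B6 (0.695, 3.22 and 4.16 CPM) and the steroid sulfatase STS (20.1, 59.3 and 58.5 CPM) rose. HSD17B6, with 10, 15 and 17 counts in controls, also fell just short of the filter there and reached it through its treated libraries. AKR1C2, which breaks down dihydrotestosterone, fell from 3.97 ± 0.045 to 0.985 ± 0.147 CPM with decitabine and to 2.23 ± 0.609 CPM with the combination, and the treatments differed (log2 fold change 1.17, adjusted p = 0.0073, edgeR). Its near copy AKR1C1 went from 3.61 to 1.81 and 3.55 CPM (1.17 and 0.97 between the treatments for AKR1C2 and AKR1C1, adjusted p = 0.006 for the latter, edgeR), and counts of these paralogs are uncertain because reads can be shared.

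Across the 9 libraries, which fall into 3 groups, Pearson correlations of log2 CPM describe which patterns were alike, with no test. FKBP5 and FOXA1 went together (r = 0.776), as did FKBP5 and STEAP2 (0.789), and KLK2 went opposite to FKBP5 (-0.919) and FOXA1 (-0.844). SLC45A3 was close to none of FKBP5 (0.251), FOXA1 (0.28) and KLK2 (-0.027). STEAP2 had r = 0.578 with SLC45A3, 0.554 with FOXA1 and -0.571 with KLK2. Among 17568 genes, those most like FKBP5 were MTPAP (0.997) and RNA5-8SN1 (0.994), those most like FOXA1 were PRDM8 (0.988) and NUF2 (0.978), and those most like KLK2 were COX7B2 (0.997) and ARHGAP29-AS1 (0.995). STEAP2 was most like ENSG00000280347 (0.969) and KNL1 (0.962), and SLC45A3 most like BATF3 (0.940) and GPER1 (0.936).

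The libraries had 21934307 to 22489684 counts each, and 22833 identifiers had none. Epithelial markers (KRT8, KRT18, KRT19 and EPCAM) summed to 872 to 953 CPM in controls. Their sum was 853 to 905 CPM in the decitabine libraries, and the combination libraries had 708 to 851 CPM. Within this sum KRT8 rose (119.5, 264 and 208 CPM, adjusted p = 1.6e-08 and 5.1e-07, edgeR). KRT18 (425, 357 and 315 CPM, adjusted p = 0.014 and 0.00031, edgeR) and KRT19 fell, and EPCAM was not called. With library size alone 2 of the 4 genes were higher and 1 lower with decitabine, and 2 and 2 with the combination. Summed markers of other cell types were low in controls and higher in treated libraries. All basal and fibroblast genes rose, and part of the neuroendocrine and leukocyte genes. Basal markers (3 genes, 2 tested) went from at most 0.0999 CPM in controls to 6.93 to 8.04 and 8.08 to 10.9 CPM, of which TP63 was 5.24 to 6.50 and 5.91 to 8.83 CPM. On average KRT14 went from 0.0165 to 1.27 and 1.59 CPM, and the untested KRT5 from 0.0331 to 0.155 and 0.231 CPM. Neuroendocrine markers (3 genes, 1 tested) went from 2.08 to 2.30 CPM to 14.9 to 16.7 and 15.6 to 17.3 CPM, of which SYP was 14.9 to 16.4 and 15.1 to 17.1 CPM, while CHGA and INSM1 were at 0 in controls and at most 0.435 and 0.0870 CPM in treated libraries. Leukocyte markers (3 genes, 2 tested, with CD3E at 0 in controls and at most 0.0843 CPM elsewhere) went from 0.198 to 0.2998 CPM to 1.52 to 1.94 and 1.27 to 1.74 CPM, and fibroblast markers (3 genes, 3 tested) went from at most 1.85 CPM to 12.2 to 14.0 and 13.7 to 17.5 CPM. Their part in the changes of KLK2, FOXA1 and FKBP5 was not tested.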

How the data were processed

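RNA-seq of PC-3 cells was used, with 3 libraries per group. Groups and replicate numbers were taken from the labels, and doses from the paper. According to the paper and the submitters' processing notes, reads were trimmed with Trim Galore 0.6.4, quantified with kallisto and related to GRCh38.p13. The authors deposited estimated counts per gene without normalization, which were used. Deposited log2 CPM values were not used. Counts were rounded, and 18532 genes that passed filterByExpr were tested with edgeR 4.0.16 (R 4.3.3), using TMM scaling, robust quasi-likelihood fits and 1 mean per group over 9 libraries. Adjusted p-values (Benjamini-Hochberg, over all genes tested) were held to a threshold of 0.05. The common dispersion was 0.00977. Nothing states that replicates were separate cultures, so p-values measure the spread between these libraries, which may be technical. Exact permutation of 3 against 3 libraries cannot go below p = 0.1, and none was used.

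Positions are from GENCODE 44 (GRCh38), which held 60357 of the 60617 identifiers. HERC3 had 2 identifiers, of which the lower-numbered was used. Intervals of 95% for ratios of low counts and floors of 3 counts cover counting error only. Folds over such a floor leave out the counting error of the treated counts. Words of 31 bases were compared among GENCODE transcripts of the 8 genes, their families, the kallikreins and overlapping genes, on either strand. Replicate pairs had a chi-square per degree of freedom of 5.86 to 23.5 over genes with at least 20 counts, so none was a copy.

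The 8 genes and the lists were chosen with earlier results of these data known. Named genes were the 8 genes, their nearest protein-coding neighbours, their families, the kallikreins, NR3C1, TSC22D3, the 2 genes most correlated with each, and up to 3 called genes per list, direction and treatment with a mean of at least 10 counts. EPCAM, MX1 and TTC6 were named beside results they bear on, and the cell type markers beside their sums. The other androgen-induced genes were KLK4, KLK15, ACP3, TRPM8, STEAP4, RAB3B, ACSL3, PMEPA1, ELL2, HERC3, ABCC4, MAF, C1orf116, MED28, CENPN, EAF2, PTGER4, MPHOSPH9, CAMKK2, SPDEF, UAP1, SORD, NCAPD3, ADAM7, GNMT and TNK1. The other lists hold the secretory (MSMB, ACP3, AZGP1, TGM4, NPY, TMEFF2, RLN1, PCA3, PCGEM1, TRPM8, SLC44A4, STEAP1), luminal (GATA2, GATA3, GRHL2, EHF, ELF3, SPDEF, EPCAM, CLDN4, CLDN7, KRT8, KRT18, KRT19), glucocorticoid-induced (TSC22D3, PER1, ZBTB16, SGK1, DUSP1, KLF9, ERRFI1, NFKBIA, GLUL, PDK4, ANGPTL4, FAM107A, CRISPLD2), receptor and coregulator (NR3C1, NR3C2, PGR, ESR2, ESRRA, NCOA1, NCOA3, NCOA4, NCOR1, KDM1A, KDM4C, HSP90AA1, FKBP4, PTGES3, FHL2) and androgen synthesis genes (AKR1C1, AKR1C2, AKR1C3, HSD17B3, HSD17B6, SRD5A1, SRD5A2, SRD5A3, HSD3B1, HSD3B2, CYP17A1, UGT2B15, UGT2B17, STS). A few single genes are not reported here, and lists are counted without them.

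As alternatives, the scaling (library size alone, or size factors as in DESeq2), the tool (limma 3.58.1 with voom, or DESeq2 1.42.0), the filter (none, or a mean of 10 counts), the libraries (those of the 2 groups, or all but 1) and a block for the replicate number were tried. The fit was tested on simulated data. Figures and summaries used matplotlib 3.10.9, scipy 1.17.1, pandas 2.3.3 and numpy 2.4.6 in Python 3.11.15.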

Additional observations from a re-analysis of the deposited data

How the results depend on the processing

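Under DESeq2's size factors, DESeq2, voom with limma, a mean of at least 10 counts and the 6 libraries alone, no call on the 8 genes changed. Without a filter TMPRSS2 was also called with decitabine. With library size alone FKBP5 kept its call with decitabine, and FOXA1 and STEAP2 lost theirs: the log2 fold change was -0.11 for STEAP2, -0.36 for FOXA1 and 0.13 for SLC45A3. With the combination it was -0.19 for FKBP5, -0.24 for FOXA1, 0.16 for STEAP2 and 0.36 for SLC45A3, the last now called. This setting moves the median of all genes, as given above. Leaving out each library in turn gave log2 fold changes of -0.43 to -0.28 for STEAP2 with decitabine, -0.13 to 0.018 for STEAP2 and -0.55 to -0.32 for FOXA1 with the combination. Between decitabine and the combination it gave -0.31 to 0.17 for KLK2, -0.008 to 0.29 for FOXA1 and 0.18 to 0.35 for SLC45A3. It also gave, there, 0 to 1 of the 8 genes called, 3 to 19 calls over the lists, and 861 to 4064 of all genes in place of 2908, lowest without combination replicate 2 and highest without combination replicate 3; the cause was not tested. Same-numbered libraries were alike in part. Their deviations from group means had correlations of -0.017 to 0.233, 2 of 9 over 0.1, and 12 of 18 comparisons were best with their own number. The 2 over 0.1 joined decitabine and combination replicates 1 (0.233) and replicates 3 (0.229). Replicate 1 of either treatment had -0.22 with replicate 3 of the other. With the replicate number as a block, as many of the 8 genes were called in each comparison as without it. Over the lists 17 calls were then made between the treatments, and FOXA1 had adjusted p-values of 1.2e-05 and 0.00016 against control (edgeR). A further tally covered KLK2 and the genes named from the lists, the families and the kallikreins, the latter only where the main fit called them. Under these alternatives 1518 values kept their side of the threshold and 37 lost it. Another 2 changed sign, both of KLK2 between the treatments. Genes not called in the main fit were left out, so the tally cannot show calls they gained. Depth limits KLK3, FOLH1 and TMPRSS2, where 3 counts over a group equal 0.0422 to 0.0496 CPM.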
